A study of Mus musculus with 8 samples.

Results

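Apolipoprotein E and 8 other genes of cholesterol handling were examined in microglia, the resident macrophages of the brain. The members were listed by name as genes of cholesterol transport, of its control by the liver X receptors (LXR), and of its storage: Apoe, Abca1, Abcg1, Nr1h2, Nr1h3, Scarb1, Soat1, Plin2 and Ch25h. They are 9 of the 35583 genes in the deposited table, and all 9 symbols were found there. The list was chosen by a reader of the plasma-positive against plasma-negative comparison of these same libraries, in which Apoe was already known to stand high, so the differences of the members between these groups are given as a description and support nothing.

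In young mice of wild-type genotype, hypothalamic microglia were sorted into those that carried an injected, dye-labelled plasma protein and those that did not. There were 4 plasma-positive and 4 plasma-negative libraries, all taken 20 hours after the injection. Every animal received the labelled protein, so the plasma-negative cells come from treated mice and not from untreated ones. Libraries were made by Smart-seq2, which amplifies whole transcripts from little RNA and does not tag single molecules. Whether equally numbered libraries share an animal, and how many animals went into each, is not stated in the labels, so errors measure the spread between these libraries, which may be partly technical.

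Apolipoprotein E is the main lipid carrier that glia secrete, and it leaves the cell loaded with cholesterol and phospholipid handed over by the membrane transporters ABCA1 and ABCG1. Oxysterols formed from excess cholesterol activate the liver X receptors, encoded by Nr1h2 and Nr1h3, which as partners of retinoid X receptors raise transcription of Abca1, Abcg1 and, in macrophages, Apoe. Cholesterol that is not exported is esterified by SOAT1 and kept in lipid droplets coated by perilipin 2, and scavenger receptor B1 exchanges cholesterol with lipoproteins at the cell surface.

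The bases just before the annotated starts of Apoe and Abca1 are shown because both are textbook LXR targets. The sequences are from RefSeq on mouse build GRCm38.p6, minus strand, 250 bases each ending just before the start site, at chr7:19699189-19699438 for Apoe and chr4:53159896-53160145 for Abca1. Capitals mark both repeats of the stretch closest to the LXR consensus where it differed by at most 3 letters.
Apoe: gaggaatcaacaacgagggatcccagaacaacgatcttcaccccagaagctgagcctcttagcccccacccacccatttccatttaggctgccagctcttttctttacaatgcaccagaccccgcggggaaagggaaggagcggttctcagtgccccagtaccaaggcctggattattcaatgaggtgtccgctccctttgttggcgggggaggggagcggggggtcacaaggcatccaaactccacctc
Abca1: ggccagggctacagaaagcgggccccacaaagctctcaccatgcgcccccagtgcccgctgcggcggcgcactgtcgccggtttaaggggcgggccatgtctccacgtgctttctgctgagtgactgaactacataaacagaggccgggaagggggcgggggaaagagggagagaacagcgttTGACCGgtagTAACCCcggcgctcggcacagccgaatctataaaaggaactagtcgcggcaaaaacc
The motif searched was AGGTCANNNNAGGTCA, the repeat with a spacer of 4 that LXR and its partner are known to prefer, on both strands of windows of 300 bases. The closest stretch in Abca1, read on the opposite strand as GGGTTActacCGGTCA, begins 67 bases before the start site on the printed strand and differs from the motif in 3 of its 12 fixed letters. Matches with up to 3 differences were present in 21.9% of 32851 promoter windows. With up to 2 differences the share was 3.02% and no window of the 7 matched members held one. RefSeq windows were found for Apoe (3 start sites), Abca1, Nr1h2, Nr1h3, Soat1, Plin2 and Ch25h. Apart from Abca1, the closest stretch in each window differed in 4 letters, so the printed Apoe sequence has no capitals. The Abca1 window also held TATAAA, present in 13.6% of windows on either strand and here beginning 29 bases before the start, and 2 copies of GGGCGG, present in 35.7%. The printed Apoe window held neither. Another of the 3 Apoe windows held TATAAA at 96 bases before its start, overlapped by its opposite-strand form TTTATA at 100. A match is only a match of letters and says nothing about binding. Sites outside these windows were not searched, so the lack of a match does not show that a gene has no LXR site.

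Total counts ranged from 2963094 in plasma-negative replicate 4 to 21422738 in plasma-negative replicate 1. The microglial markers Cx3cr1, P2ry12, Tmem119, Sall1, Csf1r, Fcrls and Siglech were well above detection in both groups. Levels are given in CPM (a gene's share of its library's counts, with TMM scaling), in which Tmem119 was at 8301 ± 287 and 8981 ± 791 and Cx3cr1 at 11550 ± 494 and 10738 ± 294 in plasma-negative and plasma-positive libraries (SD, n = 4). Genes were tested with edgeR's quasi-likelihood test. Of the microglial list Csf1r was called higher in plasma-positive microglia, from 10770 ± 471 to 13113 ± 332 CPM (SD, n = 4; edgeR, adjusted p = 0.0049). Of 13277 genes with enough counts to test, 187 (1.41%) had an adjusted p under 0.05 and 112 (0.844%) were called higher in plasma-positive microglia, and in 1364 (10.3%) the 4 libraries of one group lay entirely above those of the other.

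Apoe stood far above the other members in its difference between the groups. Its level was 60.8, 61.7, 93.8 and 18.8 CPM in plasma-negative replicates 1 to 4 and 433, 631, 558 and 390 CPM in plasma-positive replicates 1 to 4. Every plasma-positive library was above every plasma-negative one, with plasma-negative replicate 4, the shallowest library, the lowest at 56 counts. The means were 58.8 ± 30.7 and 503 ± 111 CPM (SD, n = 4 each), an 8.37-fold difference with a 95% interval of 4.89 to 14.3. On the log2 scale the difference was 3.07 with an SE of 0.35. By size of the increase Apoe ranked 82 of the 13277 tested genes. It is read from chromosome 7, 19696109 to 19699188, minus strand (ENSMUSG00000002985), in 5 merged exons that overlap those of no other gene. The difference ranged from 2.81 to 3.40 over the 20 other ways of processing the data, and was 2.81 without plasma-negative replicate 4.

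Apoe was the only member called, 1 of the 7 that had enough counts to test, and no member was called lower. The corresponding shares over all tested genes are the 1.41% called and 0.844% called higher given above. Groups were free of overlap for 2 of the 7, Apoe and Abca1, where 10.3% of all tested genes showed this. Nothing is read from these counts, since the list was drawn up with this comparison in view. Of the 7, 3 had a higher and 4 a lower mean in plasma-positive microglia, and their median log2 difference was -0.04, against 0.0058 over all tested genes.

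**Figure D1:**
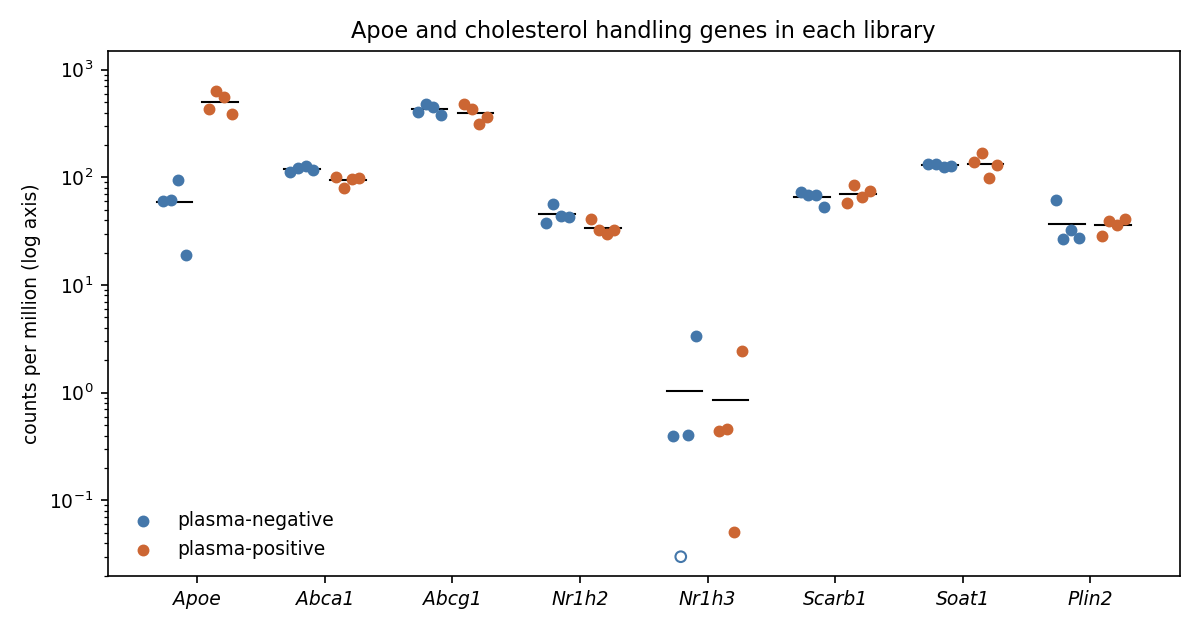
CPM (vertical log axis) of 8 members in each of the 8 libraries, as 1 point per library, with plasma-negative in blue, plasma-positive in orange and a black line at the mean. The open circle near the floor of the axis is a library with 0 counts of Nr1h3, and Ch25h, at 0 in every library, is not drawn; only Apoe shows a wide gap between the groups, from 93.8 to 390 CPM.

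Neither transporter that loads apolipoprotein E was called, and their scaled counts were on average a little lower in plasma-positive microglia. Abca1 (chromosome 4, 53030787 to 53159895) encodes the transporter that gives cholesterol and phospholipid to lipid-poor apolipoproteins. It was at 111, 123, 128 and 118 CPM in the plasma-negative replicates and at 102, 80.5, 97.3 and 98.1 CPM in the plasma-positive ones. All 4 plasma-positive libraries lay below all 4 plasma-negative libraries, though the gap between 102 and 111 was smaller than the range within either group. The log2 difference was -0.35 with an SE of 0.14 and a 95% interval of -0.65 to -0.04. It shrank to -0.12 after a correction for exon length and GC content.

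Abcg1 (chromosome 17, 31057675 to 31117988), whose product passes cholesterol to lipoproteins that already carry lipid, was at 402, 483, 448 and 376 CPM in the plasma-negative and 482, 430, 312 and 365 CPM in the plasma-positive replicates. The groups overlapped over most of their range. Its log2 difference was -0.11 (95% interval -0.41 to 0.19). On the log2(RPKM + 1) scale it was 0.0093, where the median of all genes was 0.11. An increase of the size seen for Apoe lies far outside the intervals of both transporters.

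The liver X receptors were present in very unequal amounts. Nr1h2 (chromosome 7, 44549616 to 44553951), encoding LXR beta, was at 37.7, 56.6, 44.2 and 42.7 CPM in the plasma-negative and 41.0, 32.3, 29.8 and 32.2 CPM in the plasma-positive replicates. Plasma-positive replicate 1 fell inside the plasma-negative range and the other 3 below it. The log2 difference was -0.42 with an SE of 0.23 (95% interval -0.92 to 0.07).

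Nr1h3 (chromosome 2, 91184061 to 91202834), encoding LXR alpha, had only 9, 0, 7 and 10 counts in the plasma-negative and 4, 9, 1 and 22 counts in the plasma-positive replicates. It did not pass the count filter. A difference of the transcript between the groups was not detectable at this depth.

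Scarb1 (chromosome 5, 125277087 to 125341094), encoding scavenger receptor B1, was at 72.4, 69.2, 68.3 and 52.8 CPM in the plasma-negative and 58.2, 85.0, 65.2 and 75.0 CPM in the plasma-positive replicates. The ranges overlapped, and the log2 difference was 0.11 (95% interval -0.30 to 0.51). It turned to -0.011 when only library totals were used for scaling, a setting in which the median of all genes was -0.11.

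Neither storage gene was called. Soat1 (chromosome 1, 156424525 to 156474331), whose enzyme esterifies cholesterol, was at 132, 132, 125 and 128 CPM in the plasma-negative and 139, 169, 98.3 and 129 CPM in the plasma-positive replicates. The plasma-negative values sat inside the plasma-positive range, with SDs of 3.24 and 29.2 CPM (n = 4 each). Its log2 difference was 0.05 (95% interval -0.31 to 0.41).

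Plin2 (chromosome 4, 86648386 to 86670060), the lipid droplet coat protein, was at 62.2, 26.7, 32.7 and 27.3 CPM in the plasma-negative and 28.6, 39.3, 36.1 and 41.2 CPM in the plasma-positive replicates. Plasma-negative replicate 1 was the highest of all 8 libraries and 2 of its group were the lowest. The log2 difference of -0.04 (95% interval -0.71 to 0.63) became 0.33 without that replicate. This interval is the widest among the 6 members other than Apoe that could be tested.

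Ch25h (chromosome 19, 34473778 to 34475164), whose enzyme makes 25-hydroxycholesterol, an oxysterol that activates LXR, had 0 counts in all 8 libraries. A count of 0 allows up to 3 counts, or 0.133 to 1.01 CPM depending on the library. Such limits cover counting error only, since amplified reads are not independent molecules.

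**Figure D2:**
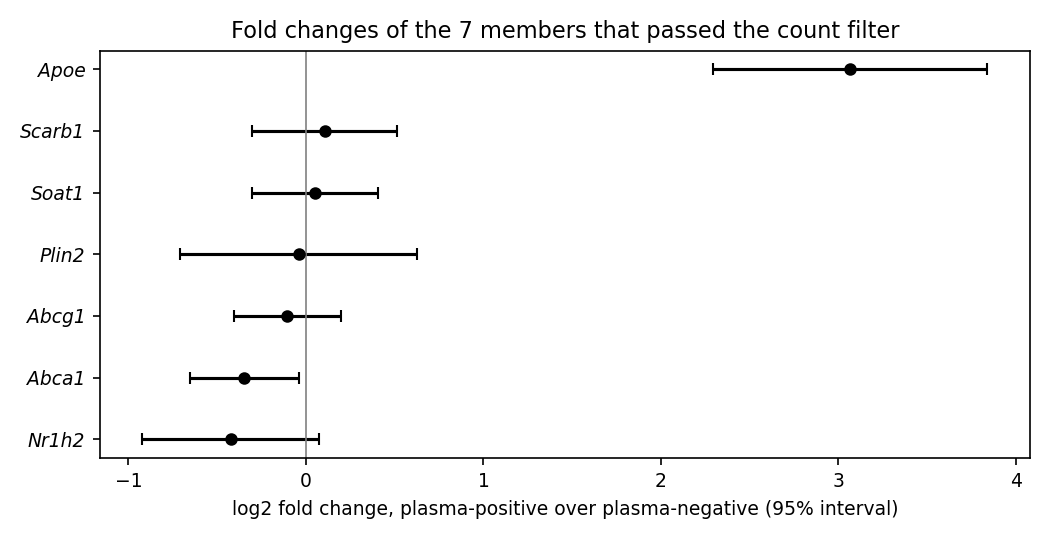
Log2 difference of plasma-positive over plasma-negative microglia (horizontal axis) for the 7 members that passed the count filter, with points at the edgeR estimate and bars for the 95% interval, n = 4 libraries per group. Apoe lies at 3.07 and its interval begins at 2.29, above the upper end of every other interval, the next being 0.63 for Plin2.

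Levels can be compared between genes only per exon length, for which the deposited RPKM values were used. In plasma-negative microglia Abcg1 was the highest member, with a median of 42.3 RPKM (38.6 to 47.7, n = 4). Apoe came next at 20.8 RPKM (6.60 to 31.8). Below it were Soat1 at 9.75, Nr1h2 at 9.55, Abca1 at 8.54, Plin2 at 6.28 and Scarb1 at 5.84 RPKM, each with a range that overlapped that of its neighbour. The range of Apoe overlapped that of Soat1 as well, through replicate 4. Nr1h3 followed at 0.117 RPKM and Ch25h was listed at 0.

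In plasma-positive microglia Apoe was first at 186 RPKM (141 to 240, n = 4) and Abcg1 was next at 43.3 RPKM (34.4 to 52.8), with no overlap between them. Soat1 at 10.8, Plin2 at 8.67, Nr1h2 at 7.63, Abca1 at 7.43 and Scarb1 at 6.49 RPKM again overlapped from neighbour to neighbour. Nr1h3 was at 0.144 RPKM. The ratio of Apoe to Abcg1 in RPKM within a library was 0.517, 0.436, 0.715 and 0.171 in the plasma-negative and 3.07, 5.01, 6.10 and 3.65 in the plasma-positive replicates. The order of these 2 genes was thus reversed between the groups in every library, and this ratio does not depend on how libraries are scaled. The ratio of Apoe to Abca1 was between 0.776 and 3.55 in plasma-negative and between 19.3 and 38.0 in plasma-positive libraries.

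**Figure D3:**
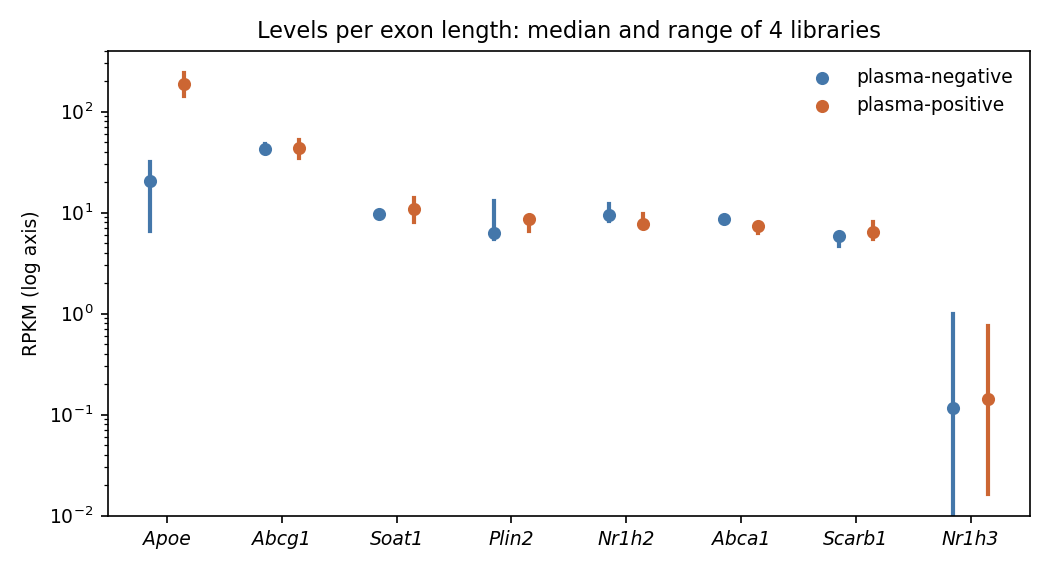
RPKM (vertical log axis) of 8 members in plasma-negative (blue) and plasma-positive (orange) microglia, with a point at the median of 4 libraries and a line from the lowest to the highest; a line that meets the axis floor includes a library at 0. Apoe moves from 20.8 to 186 RPKM while Abcg1, at 42.3 and 43.3 RPKM, changes little in its median.

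The other members were set against Apoe across the 8 libraries. Pearson's r with Apoe in log2 CPM was -0.80 for Abca1, -0.68 for Nr1h2, 0.48 for Scarb1, 0.16 for Plin2, 0.07 for Soat1 and -0.16 for Abcg1. These values contain the difference between the groups. For deviations from the group means they were -0.02, 0.03, 0.66, 0.30, 0.04 and 0.32 in the same order, so the 2 strongest negative values came from the group difference. Over the 8 libraries the genes most like Apoe, of 8889 at 10 CPM or more, were Pde6h, Arhgdib, Ftl1, Ctsz and Tmem248 (r = 0.96 to 0.97). By deviations from the group means they were Pik3r1, Gm28052, Maged1, Jrk and Msl1 (r = 0.98 to 0.99). No gene was in both sets, all points share library depth and n is 8, and the values are a description.

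Other cell types in the brain express Apoe, above all astrocytes, so their markers were read in the same libraries. In bulk samples a larger share of cells of a type cannot be told apart from more RNA per cell. The 8 astrocyte markers (Aqp4, Gfap, Aldh1l1, Slc1a2, Slc1a3, Gja1, Aldoc and Atp1b2) summed to 219 to 337 CPM in plasma-negative and 208 to 300 CPM in plasma-positive libraries. The ranges of the sum overlapped, and most of it was Slc1a3, at 238 ± 54.3 and 185 ± 14.7 CPM (SD, n = 4). The other markers were scarcer and several had higher means in plasma-positive libraries. None of the 5 tested was called in edgeR, and 3 had a positive difference. Their median of 1.58 rested on single libraries and on which markers passed the filter: it was -0.38 over 7 markers without plasma-negative replicate 4 and between 0.27 and 0.96 when any other library was left out. Aldoc was at 10.6, 4.59, 5.24 and 2.69 CPM in the plasma-negative and 10.9, 42.0, 8.07 and 9.50 CPM in the plasma-positive replicates (edgeR, adjusted p = 0.298), and Gja1 had a difference of 2.29 (edgeR, adjusted p = 0.608). Slc1a2, the glial glutamate transporter, was at 3.54, 2.77, 0.349 and 7.74 CPM in the plasma-negative and 19.4, 67.5, 1.27 and 2.23 CPM in the plasma-positive replicates. Apoe was at 558 CPM in plasma-positive replicate 3 and 390 CPM in replicate 4, where Slc1a2 was at 1.27 and 2.23 CPM, Aqp4 at 0.102 and 0 CPM, and Aldh1l1 at 0 and 0.447 CPM. In the same libraries Aldoc was at 8.07 and 9.50, Gfap at 0 and 4.80 and Atp1b2 at 0.0508 and 5.81 CPM. Without plasma-positive replicate 2, the library with the highest Slc1a2, the log2 difference of Apoe was 2.94.

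Border macrophages of the meninges and vessels also express Apoe. Of their 8 markers, Lyve1, Cd163, F13a1 and Cd209f had 0 counts in every library. The sum of the 8 was 0.881 to 3.61 CPM in plasma-negative and 1.76 to 16.5 CPM in plasma-positive libraries. Mrc1 made up most of the plasma-positive sums, at 1.76, 12.1, 1.42 and 15.3 CPM (edgeR, adjusted p = 0.429), and had no counts in plasma-negative replicates 2 and 3. In plasma-positive replicates 1 and 3 Mrc1 was within its plasma-negative range of 0 to 2.36 CPM, and in replicates 2 and 4 above it. Apoe was at 433, 631, 558 and 390 CPM in plasma-positive replicates 1 to 4. Oligodendrocyte markers summed to 157 to 230 CPM in plasma-negative and 222 to 514 CPM in plasma-positive libraries, and neuron markers to 2.69 to 28.7 and 1.93 to 225 CPM. The highest of both sums was in plasma-positive replicate 2, which also had the highest Apoe. In RPKM the oligodendrocyte sums did not overlap (25.9 to 36.9 and 42.4 to 79.7). All 5 tested oligodendrocyte and all 4 tested neuron markers had positive differences (medians 0.80 and 2.09), where 50.4% of all tested genes had. None was called in edgeR. Without plasma-positive replicate 2 these medians were 0.425 (5 of 5 positive) and 0.659 (3 of 4 positive). Monocyte and neutrophil markers reached 474 CPM in plasma-positive replicate 3, where S100a8 and S100a9 made up nearly all of it, and at most 13.8 CPM elsewhere. Without that library the log2 difference of Apoe was 3.02. Tanycyte and ependymal markers stayed at or below 4.40 CPM, with Rax, Foxj1 and Ccdc153 at 0, and endothelial and mural markers were at 18.5 to 37.0 and 22.2 to 58.7 CPM. The part of these cells in the values of Apoe and the other members was not tested.

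**Figure D4:**
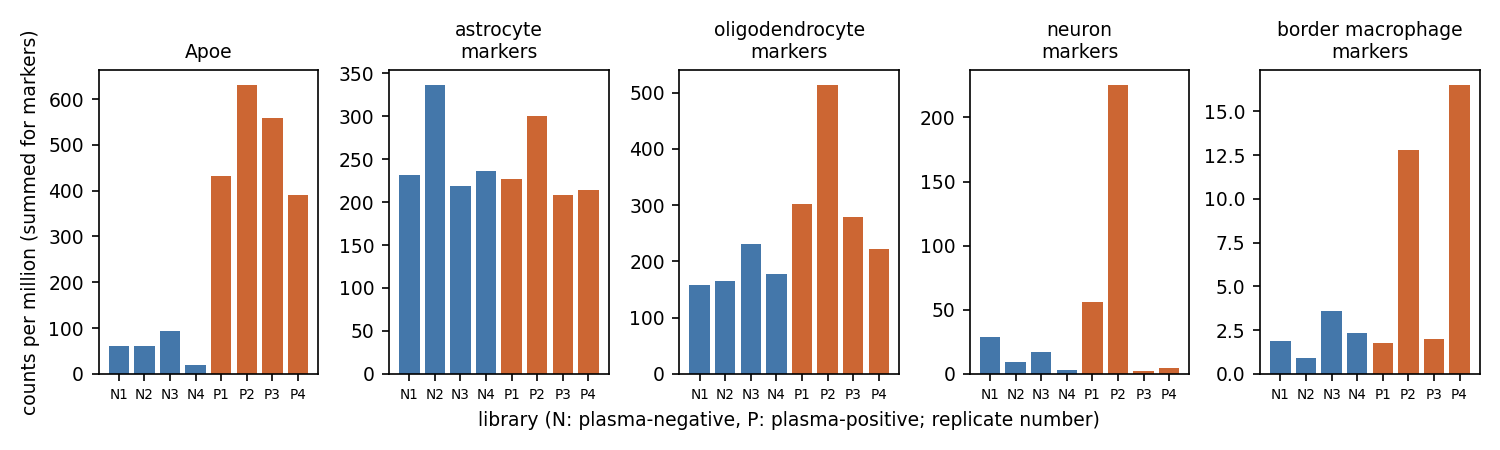
CPM in each library (N1 to N4 plasma-negative, P1 to P4 plasma-positive) for Apoe and for the summed markers of astrocytes, oligodendrocytes, neurons and border macrophages, as bars from 0 with a separate vertical scale per panel. Apoe is high in all 4 plasma-positive libraries (390 to 631 CPM). The astrocyte sum, most of it Slc1a3, overlaps between groups, and the neuron sum is highest in P2 at 225 CPM. The part of these cells in Apoe was not tested.

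The difference between the groups also varied with exon length. The median log2 difference was 0.09, 0.10, 0.08, -0.03 and -0.22 over 5 length classes of near-equal size, from the shortest to the longest genes. Apoe, with 2138 exon bases, is in class 2, Nr1h2 and Plin2 are in class 3, and Abca1, Abcg1, Scarb1 and Soat1 are in class 5. After correction for exon length and GC content Apoe had a log2 difference of 2.90, Abcg1 -0.03, Scarb1 0.24, Soat1 0.29 and Nr1h2 -0.54.

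A further 100 genes of cholesterol and lipid handling were read from 9 functional lists. All 100 were in the table, 73 had enough counts to test, and 1 was called higher and 0 lower (edgeR, adjusted p under 0.05), against the 1.41% of all tested genes called. DESeq2, in which 86 of the 100 had a p-value, called 6, against 5.15% of all genes with a p-value there. At an unadjusted p under 0.05 in edgeR there were 9 higher and 5 lower, where 7.13% and 6.67% of all tested genes were. The median log2 difference was 0.16, with values of 0.03 to 0.36 over the 20 alternatives (0.10 without plasma-negative replicate 4), of which the lowest came with library totals only, where the median of all genes was -0.11.

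The called gene was Npc2 (ENSMUSG00000021242, chromosome 12, 84754562 to 84773152), which binds cholesterol in the lysosome and passes it on for export. It was at 480, 491, 442 and 476 CPM in the plasma-negative and 644, 699, 634 and 786 CPM in the plasma-positive replicates, with all plasma-positive libraries the higher. It rose 1.46-fold, by 0.55 with an SE of 0.09 on the log2 scale (edgeR, adjusted p = 0.0134). It was past the threshold in 18 of 20 alternatives and not in the other two, without plasma-negative replicate 3 (edgeR, adjusted p = 0.0566) and with a replicate block plus the length and GC correction (edgeR, adjusted p = 0.0696). Lipa, the acid lipase that frees cholesterol from esters in the lysosome and is named after its values were seen, was at 229 ± 23.0 and 339 ± 51.7 CPM (SD, n = 4; edgeR, adjusted p = 0.0548), and passed in 5 of 20 alternatives (adjusted p = 0.00215 in DESeq2). Npc1, the membrane protein that takes cholesterol from Npc2 and is also named after its values were seen, had a log2 difference of -0.34 (edgeR, adjusted p = 0.322), and Stard3, a sterol carrier of the late endosome, one of 0.34 (adjusted p = 0.239 in edgeR). Together the 9 lysosomal export and transfer genes summed to 1107 to 1264 CPM in plasma-negative and 1483 to 1559 CPM in plasma-positive libraries, without overlap. In this list 4 of the 8 tested genes had a positive and 4 a negative difference, so the sum follows its most abundant members.

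Other apolipoproteins were scarce beside Apoe. The 9 others summed to 0.315 to 11.2 CPM in plasma-negative and 4.01 to 33.8 CPM in plasma-positive libraries. Clu and Apod, both secreted lipid carriers, had log2 differences of 1.58 and 2.25 (edgeR, adjusted p = 0.706 and 0.615). Of the efflux and lipidation genes, Pltp, which transfers phospholipid between lipoproteins, had a difference of -0.03 and Abca2, a transporter of intracellular membranes, one of -0.66 (edgeR, adjusted p = 0.979 and 0.587).

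No LXR partner or further LXR target was called in edgeR or DESeq2. Of the 4 tested partner and corepressor genes 3 had negative differences, with Ncor1, a corepressor, at -0.53 and Rxrb, a retinoid X receptor, at 0.11 (edgeR, adjusted p = 0.233 and 0.881). The 10 other LXR target genes summed to 1835 to 2128 CPM in plasma-negative and 1767 to 2059 CPM in plasma-positive libraries, with overlap. Of these 10, 8 had a positive difference with a median of 0.14, but 5 without plasma-negative replicate 4 (median 0.10), and leaving out a library gave medians of 0.07 to 0.28. The smallest p among them was that of Lpl, named after its values were seen, the lipase that frees fatty acids from lipoproteins, at 29.9 ± 10.3 and 54.8 ± 5.87 CPM (SD, n = 4) without overlap, a log2 difference of 0.88 (edgeR, adjusted p = 0.175). Mylip, whose ligase degrades lipoprotein receptors, had a log2 difference of 0.02 and Mertk, a receptor for uptake of dead cells, one of -0.21 (edgeR, adjusted p = 0.97 and 0.317). Among lipoprotein and lipid receptors 0 of 8 tested were called, with Lrp1, a large receptor that takes up apolipoprotein E, at -0.15 (edgeR, adjusted p = 0.652).

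No gene of sterol synthesis was called in edgeR with all libraries, while DESeq2 called Hmgcs1 and Lbr (adjusted p = 0.0372 and 0.0175 in DESeq2). Of 25 tested, 17 (68%) had a positive difference, as had 48 of the 73 tested pathway genes (65.8%) and 6695 of all 13277 (50.4%). The median was 0.36, but 0.22 without plasma-positive replicate 2, 0.23 without plasma-positive replicate 3 and 0.18 in DESeq2. Relative to the median of all genes it was 0.35 both here and with library totals only, a change of scaling that moves all genes nearly alike. That relative value was 0.131 in DESeq2, 0.121 without the count filter, 0.18 on log2(RPKM + 1) and 0.363 with the length and GC correction. The sum of the 27 listed genes was 713 to 736 CPM in plasma-negative and 875 to 900.5 CPM in plasma-positive libraries, without overlap, and the same held with library totals only and in RPKM. Hmgcs1, an early enzyme of the mevalonate pathway, had a difference of 0.76 and Lbr, a sterol reductase of the nuclear envelope, one of 0.73 (edgeR, adjusted p = 0.162 and 0.106), of which Hmgcs1 is named after its values were seen. Ebp, a sterol isomerase, had 0.04 (edgeR, adjusted p = 0.95). Lipid droplet genes summed to 358 to 415 and 446 to 545 CPM, which overlapped once only library totals were used. Pnpla2, a droplet lipase, had a difference of 0.32 (edgeR, adjusted p = 0.542), and Bscl2, which helps form droplets, had 0.57 and Lipe, a lipase for stored esters, -0.50 (edgeR, adjusted p = 0.0804 and 0.215). DESeq2 called both (adjusted p = 0.00539 and 0.0228 in DESeq2), Lipe being named after its values were seen. Of the oxysterol genes, Cyp27a1, which makes 27-hydroxycholesterol, had 0.05, and Gpr183, the receptor for a product of the Ch25h pathway, had -0.21 (edgeR, adjusted p = 0.96 and 0.432).

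**Figure D5:**
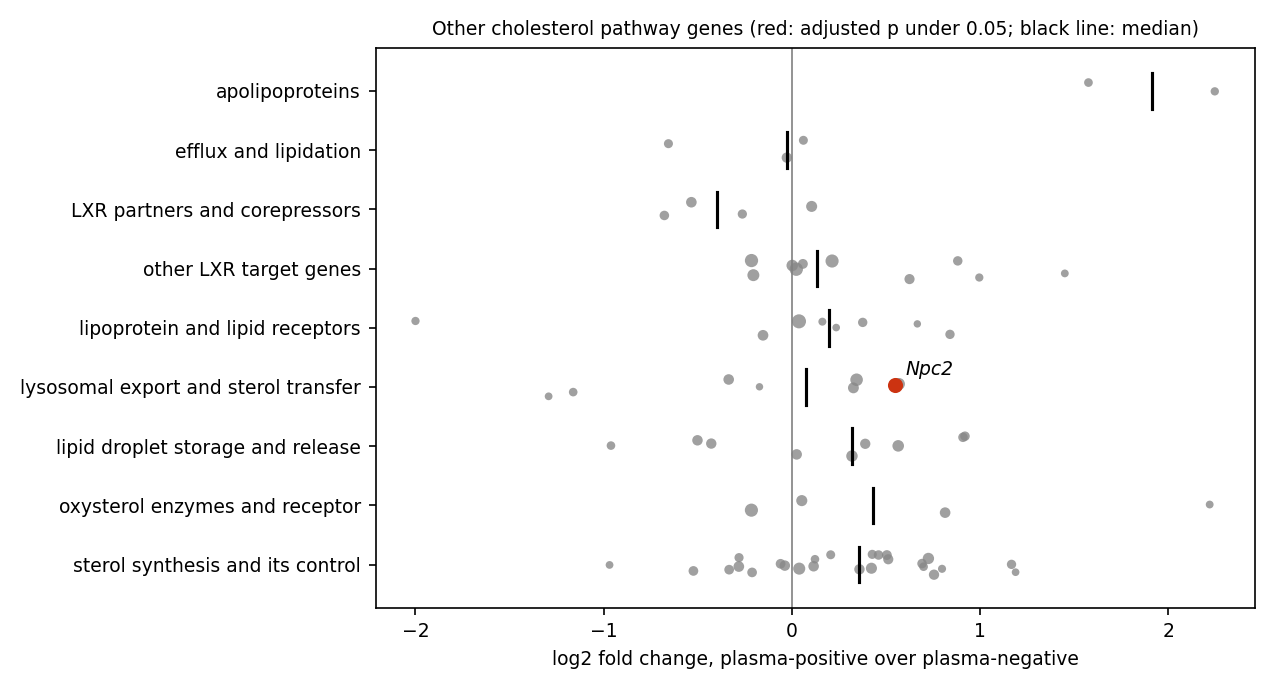
Log2 difference of plasma-positive over plasma-negative microglia (horizontal axis) for the 73 tested genes of the 9 lists, as 1 point per gene that is larger at a higher mean RPKM, with a black line at each list's median and red for an adjusted p under 0.05 in edgeR. Npc2 at 0.55 is the only red point, and the median of the 25 sterol synthesis genes is 0.36.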

How the data were processed

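Bulk RNA-seq libraries of plasma-positive and plasma-negative microglia (4 each) were compared, grouped by their titles. Per the file headers, the authors counted whole reads per gene over top-hit alignments, and these counts were used as deposited. The authors' RPKM values, read counts divided by exon length and library size, were also used as deposited. The submitters' processing notes name bcl2fastq, Trim Galore, STAR, HTSeq and build mm10. Strand and multi-mapping settings are not given in the sources used here. Total counts were 2963094 to 21422738 per library, and 3 counts was the floor for a gene seen.

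Counts were tested in edgeR 4.0.16 (R 4.3.3) with TMM factors, edgeR's default filter applied by group, and quasi-likelihood F tests with no covariates, with Benjamini-Hochberg adjustment over all 13277 tested genes and calls under 0.05. The SE is the log2 difference divided by the root of its F value. CPM values use TMM factors. Levels between genes use RPKM. Exon lengths, GC content and overlaps come from GENCODE M21 (GRCm38), in which 35546 of 35583 identifiers were found. The fit was tested on simulated counts.

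Named were all members, every called pathway gene, otherwise the 2 pathway genes per list with the highest mean RPKM, and genes correlating most with Apoe. A few further pathway genes are marked in the text as named after their values were seen. Members and lists were chosen with earlier results of these data known. Some genes counted in their lists are not reported here. Alternatives were other scalings and filters, DESeq2 1.42.0, limma 3.58.1 (voom with quality weights, and log2 of RPKM plus 1 or 0.1), a replicate block, a loess correction (span 0.3) for length and GC of the exons, that with the block, and leaving out each library. Chosen after seeing the data were matches with 3 differences in promoters, list sums under other scalings and the genes within 50 kb of Apoe.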

Additional observations from a re-analysis of the deposited data

Results flagged for a closer look

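In groups of 4 libraries, 4 of 58 checked had a single library far from the other 3, by the gap to the nearest of them over the whole range, where chance gives about 1 in 20. Nr1h3 was at 3.36 CPM in plasma-negative replicate 4, from 10 counts, against 0.408 CPM in the nearest of its group. It was also far out at 2.46 CPM in plasma-positive replicate 4, from 22 counts, against 0.458 CPM. Plin2 was at 62.2 CPM in plasma-negative replicate 1, from 1404 counts, against 32.7 CPM. Apod was at 3.85 CPM in plasma-negative replicate 1, from 87 counts, against 0.175 CPM.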

How the results depend on the processing

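Apoe was the 1 member called in the main analysis and in all 20 alternatives. All genes called numbered 187, against 963 with DESeq2, 447 and 432 with limma on log2 of RPKM plus 1 and plus 0.1, 83 with the length and GC correction, and 66 to 203 when each library was left out (203 without plasma-negative replicate 4, 66 without plasma-negative replicate 3). The split was 112 higher and 75 lower, against 64 and 163 with library totals only, 388 and 59 and 370 and 62 on RPKM, and 62 and 21 with the length and GC correction. A replicate block left 74 genes called, and 15 when joined with that correction. Libraries with the same number deviated together with correlations of 0.0109 to 0.0315, so the numbers were not taken to pair them. Pathway genes called numbered 1, against 2 with upper quartile factors, 6 with DESeq2, 4 with limma on either RPKM scale, 2 with the length and GC correction, 0 when the block was added to it, and 0 to 1 leaving out a library. Member signs turned for Scarb1 (-0.011) and Soat1 (-0.064) with library totals only, for Abcg1 (0.0093 and 0.0092) and Plin2 (0.14 and 0.17) with log2 of RPKM plus 1 and plus 0.1, and for Plin2 with the block (0.051). Leaving out a library gave Plin2 -0.17 to 0.33 and Soat1 -0.080 to 0.18. The median of all genes was itself -0.11 with library totals only, and 0.11 and 0.16 with log2 of RPKM plus 1 and plus 0.1. In these settings Scarb1 and Soat1 stayed above that median and Abcg1 below it, as in the main analysis. Plin2, below the median in the main analysis, lay above it on both RPKM scales. The cause of the turns was not tested. Plasma-negative replicate 4, the shallowest library, had 56 counts of Apoe and the lowest level in its group. Whether its depth accounts for that level was not tested.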

Other observations

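Of the 8 other genes within 50 kb of Apoe, 4 had enough counts to test, and 0 of these 4 were called in edgeR at an adjusted p under 0.05, where 1.41% of all tested genes were. At an unadjusted p under 0.05 there was 1, Clptm1. Tomm40, a mitochondrial import channel gene 2125 bases from Apoe, was at 69.4 ± 15.8 and 75.4 ± 7.04 CPM in plasma-negative and plasma-positive libraries (SD, n = 4; edgeR, adjusted p = 0.871). Clptm1 and Nectin2 had log2 differences of 0.36 and 0.50 (edgeR, adjusted p = 0.157 and 0.412). Apoc1, an apolipoprotein gene 3449 bases away, had 0, 38, 3 and 0 counts in plasma-positive replicates 1 to 4 and none in the plasma-negative libraries. Apoc2 had 1 count in a single library and Apoc4 had 0 in all 8.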
